A study of Mus musculus with 16 samples.

Results

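The genes described here encode ribosome biogenesis factors and nucleolar proteins. They are the members of a list of 46 genes, and every probe set of the array annotated with 1 of these genes and no other was used. Such a probe set was found for 45 genes, with 88 probe sets in all out of 45037 on the array after its control probe sets were left out. The only probe set of Mrto4 also names other genes and was not used. A probe set is a group of short probes against 1 transcript region, and 29 of the 45 genes had more than 1.

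Total RNA came from cultured E14tg2a cells, an established mouse embryonic stem cell line, and both groups share this material. In the amplified group, 10 pg of the RNA, the amount the study set as the level of a single cell, was turned into cDNA and amplified by PCR with the V1V3 method before labelling, independently for each of 8 arrays. In the nonamplified group, 5 µg of undiluted RNA was labelled directly for each of 8 arrays. The arrays are labelled as technical replicates of 1 RNA, so the errors and p-values below measure the spread of the method and not the spread between cultures or cells.

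The median intensity of an array was 35.1 ± 1.06 (SD, n = 8) with amplification and 51.8 ± 1.45 (SD, n = 8) without, and the lowest value, 1, was given to 7.52% ± 0.60 of the probe sets with amplification and to 2.54% ± 0.37 without. The scaling between arrays is not given in the sources used here, so each direction was also examined under 4 other scalings. Of the probe sets on the array, 27022 passed a filter on low mean intensity and were tested, among them 81 of the 88 probe sets of the member genes. All 12 embryonic stem cell markers listed were tested and had mean intensities from 615 to 8422 without amplification. Of 12 fibroblast markers, a check for feeder cells, 6 were bright enough to be tested and lay between 31.1 and 82.0 in that group. Of 12 differentiation markers 8 were tested and lay between 33.2 and 247 without amplification. On amplified arrays 7 of these 8 were called higher (87.5%, beside 27.4% of all genes), with means from 49.6 to 13500 over the list. The largest increases were those of Hand1 at 13500 against 38.1, Mixl1 at 421 against 42.7 and Gata6 at 229 against 73.2. Sox1, at 33.2 without amplification, lay under the filter level of 33.7 there and was tested only because of its amplified arrays. Of the stem cell markers 5 were called higher (41.7%) and 4 lower (33.3%), beside 27.4% and 24.8% of all genes. Their log2 fold changes (amplified over nonamplified) ran from −2.66 for Nanog to 2.26 for Utf1. Both groups are labelled as replicates of 1 RNA, so these marker values do not measure a difference between cells. The part of these marker differences in the results below was not tested.

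Ribosomes are assembled in the nucleolus, where RNA polymerase I transcribes the precursor of most ribosomal RNAs. Small nucleolar ribonucleoprotein particles modify the precursor: box C/D particles guide ribose methylation and box H/ACA particles guide pseudouridylation. A large complex called the small subunit processome folds and cleaves the precursor of the small subunit, a separate series of factors builds the large subunit, and both precursors are then exported to the cytoplasm. Embryonic stem cells divide rapidly and are known for prominent nucleoli and high ribosome production.

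Many ribosome biogenesis genes are known targets of MYC, which binds the E-box CACGTG, and the start regions of the member genes are shown for that reason. RefSeq start regions of assembly GRCm38.p6, from 250 bases before to 50 bases after a transcription start, were matched by symbol for 40 of the 46 members, with 44 windows of 300 bases. The letters CACGTG, which read the same on both strands, occurred in 8 of 44 windows (18.2%) of 8 genes. Among 21263 windows of protein-coding genes the share was 7.84%. The matches are given with up to 12 bases on either side, 5′ to 3′ on the strand of the gene, with CACGTG in capitals.
Imp4, chr1:34439696-34439725, plus strand: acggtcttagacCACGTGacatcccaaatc
Ltv1, chr10:13193092-13193121, minus strand: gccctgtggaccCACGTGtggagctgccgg
Nop2, chr6:125131811-125131840, plus strand: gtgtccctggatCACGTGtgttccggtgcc
Pes1, chr11:3963965-3963994, plus strand: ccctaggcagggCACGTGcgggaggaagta
Tsr1, chr11:74898092-74898121, plus strand: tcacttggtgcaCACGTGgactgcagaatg
Utp18, chr11:93885769-93885798, minus strand: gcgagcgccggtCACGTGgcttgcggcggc
Utp20, chr10:88826765-88826789, minus strand: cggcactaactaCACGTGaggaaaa
Wdr43, chr17:71616220-71616249, plus strand: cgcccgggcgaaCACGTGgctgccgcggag
The sequence flanking CACGTG differed from gene to gene. At the probe set of highest mean, Ltv1, Pes1, Tsr1, Utp18 and Utp20 were lower on amplified arrays, and Imp4, Nop2 and Wdr43 passed the test in neither direction. A match is a stretch of letters only and carries no measurement of binding. Both groups share the same RNA, so these calls do not measure promoter activity.

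Probe sets of the ribosome biogenesis genes were more often lower than higher on amplified arrays. Of the 81 tested, 41 were lower (50.6%), 11 were higher (13.6%) and 29 passed the test in neither direction, at an adjusted p below 0.05 in limma. Over all 27022 tested probe sets, 32.8% were lower and 24.7% were higher, or 57.5% called in either direction. At least 2-fold differences, a log2 fold change of 1 or more, were found for 31 lower and 6 higher probe sets of the members, beside 22.1% and 12.5% of all probe sets. The median log2 fold change, amplified over nonamplified, was −0.76 over the members and −0.17 over all tested probe sets. The groups did not overlap for 39 of the 81 probe sets (48.1%, with 32 lower and 7 higher), beside 33.6% of all tested probe sets. Some lower calls, such as that of Ftsj3, had an amplified mean under the level of the intensity filter. These probe sets were tested only because of their nonamplified arrays. A higher call of Ebna1bp2 was likewise tested only because of its amplified arrays.

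The scaling of the arrays moved these medians by more than 0.1. It placed the median of the member probe sets between −1.10 and −0.26, while their distance to the median of all probe sets stayed between −0.86 and −0.55 over the 5 scalings. The share of higher among called member probe sets was 21.2% as deposited, 7.14% after quantile normalization, 44.4% after centring on the array median, 38.2% after scaling on the brighter 50% of probe sets and 8.16% after scaling on hybridization controls. A total of 30 probe sets of 22 genes were called lower and 3 were called higher under all 5 scalings, 39 others were called under some scalings and not under all, or in opposite directions, and 9 were called under none. The 3 higher ones belonged to Imp3, Nop10 and Ebna1bp2. A statement below that a direction held under all 5 scalings refers to these. How many of all tested probe sets were called alike under all 5 scalings was not counted, so these counts have no share beside them. In single scalings, 20.8% to 43.8% of all tested probe sets were lower and 14.1% to 39.3% were higher.

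**Figure D1:**
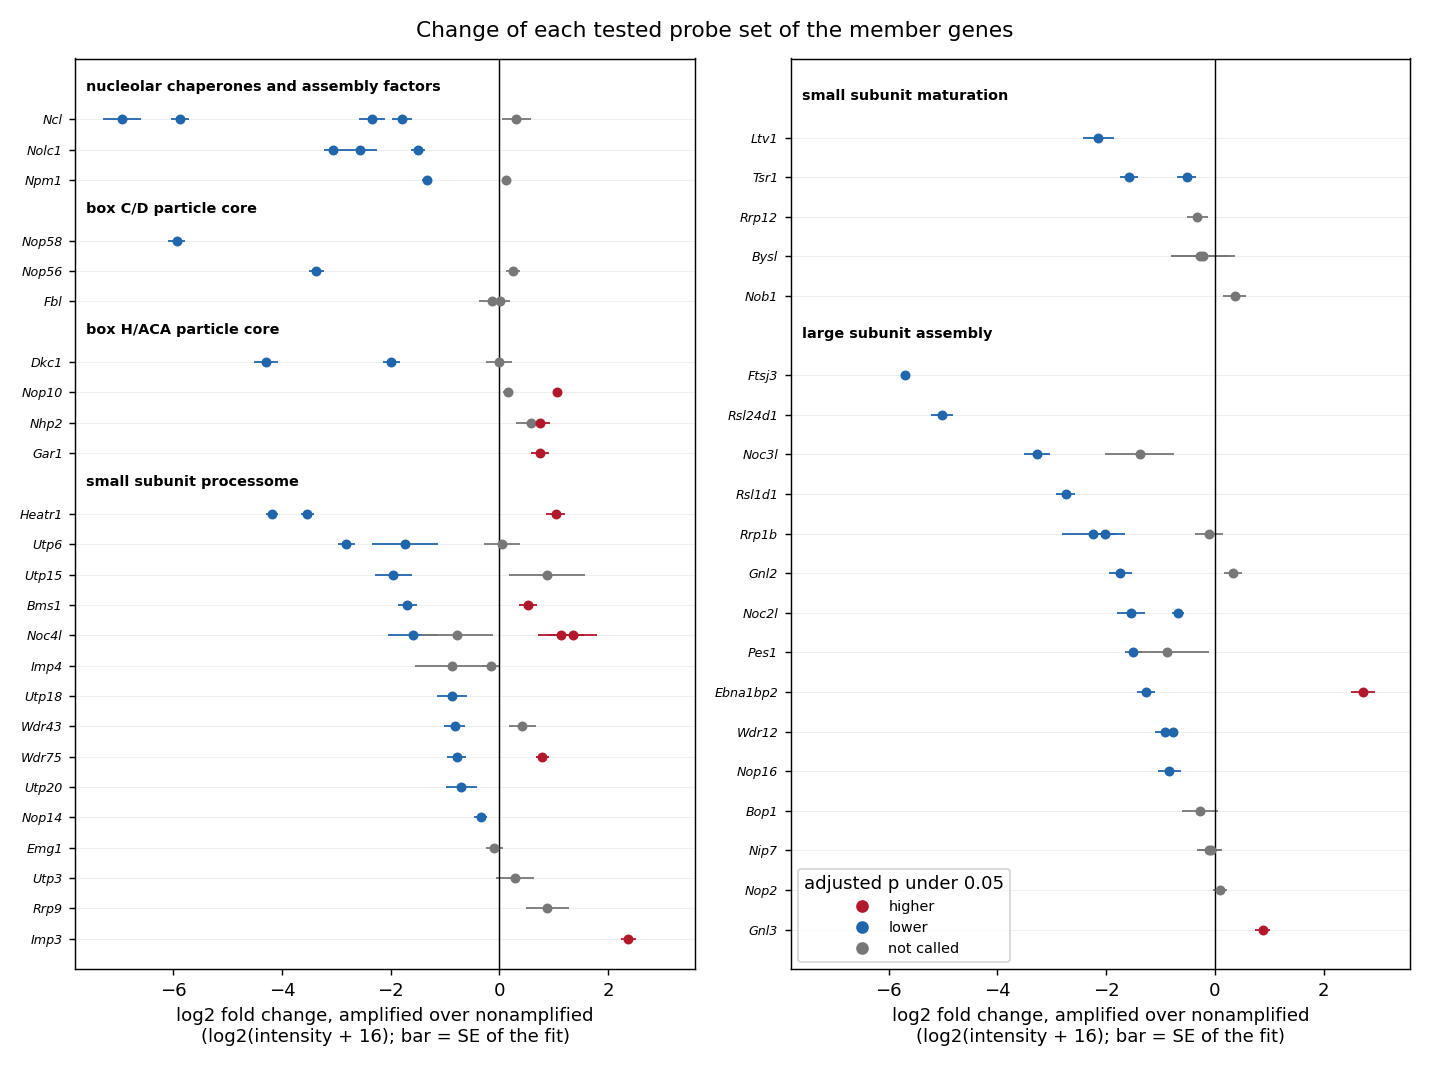
Log2 fold change (amplified over nonamplified, horizontal axis) of each of the 81 tested probe sets, 1 row per gene grouped by role, with the SE of the fit as a bar and the call by colour. Values run from −6.94 for a probe set of Ncl to 2.73 for a probe set of Ebna1bp2, both of which depend on the constant added before taking logs, and several genes have points on both sides of 0.

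With 1 probe set per gene, the one brightest on average on the 16 arrays, the picture was closer to that of all genes. This choice includes the amplified arrays, which favours probe sets that stay bright with amplification. For Npm1, Dkc1, Noc4l, Gnl2, Wdr43, Utp15 and Rrp1b, a probe set called lower was brighter without amplification than the one chosen. How far the choice moved the shares is not given here. Of 45 member genes, 17 were lower (37.8%), 9 were higher (20%) and 19 passed the test in neither direction. Among 13660 genes, 24.8% were lower, 27.4% were higher and 52.2% were called in either direction. The median log2 fold change was −0.11 for the member genes and −0.026 for all genes. This balance turned with the scaling: 19 higher and 10 lower member genes after centring on the median, and 16 higher and 11 lower after scaling on the brighter 50%. Counted over all their probe sets, 24 member genes had only lower calls (53.3%, beside 33.7% of all genes). Only higher calls were found for 5 (11.1%, beside 24.1%), namely Gar1, Gnl3, Imp3, Nhp2 and Nop10. Calls in both directions were found for 5 (beside 8.16% of all genes), namely Bms1, Ebna1bp2, Heatr1, Noc4l and Wdr75. Several probe sets were tested for 57.8% of the member genes and for 41.0% of all genes, and a gene with more probe sets has more chances of a call.

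**Figure D2:**
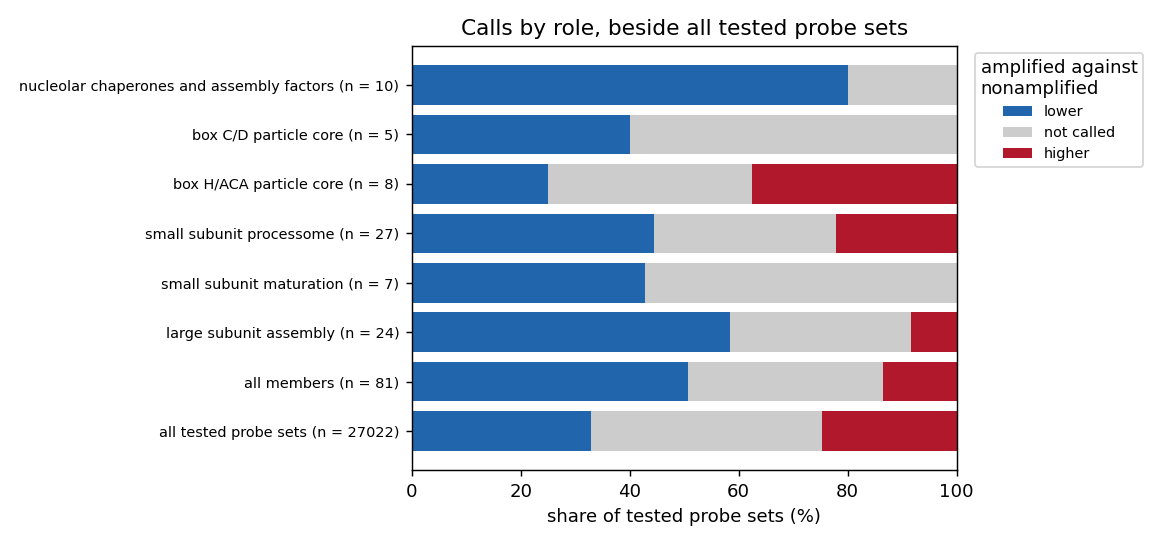
Share of tested probe sets (percent, horizontal axis) called lower, not called or called higher on amplified arrays, for each role and for all tested probe sets. The nucleolar chaperones have 8 lower calls and no higher one, the box H/ACA core has 3 higher and 2 lower, and all tested probe sets show 32.8% lower and 24.7% higher.

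The nucleolar chaperones and assembly factors Npm1, Ncl and Nolc1 were lower at 8 of their 10 probe sets (80%, beside 32.8% of all tested probe sets). Their median log2 fold change was −2.06. These 8 calls held under all 5 scalings. Npm1 encodes nucleophosmin, an abundant histone and ribosome chaperone of the nucleolus. At 1432416_a_at its intensity ran from 2552 to 3670, median 3256, with amplification and from 7662 to 8301, median 8040, without. The amplified arrays all lay below the nonamplified arrays, and the log2 fold change was −1.34 (SE 0.084, adjusted p = 5.57e-10). The other Npm1 probe set, 1415839_a_at, ran from 6593 to 7727, median 7266, with amplification and from 6313 to 6929, median 6639, without. Here the groups overlapped, although 6 of 8 amplified arrays lay above the highest nonamplified array. The log2 fold change was 0.11 (SE 0.063, adjusted p = 0.135). It was −0.52 and called after quantile normalization, and 0.67 and called after centring on the median, so no direction can be given for that probe set. Npm1 has processed copies in the genome, and both probe sets may detect RNA of more than 1 copy.

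Ncl encodes nucleolin, an RNA-binding protein of ribosomal DNA transcription and early precursor processing. Its 5 probe sets gave different results on the same arrays. At 1415773_at the intensity was between 1 and 87.1, median 8.97, on amplified arrays and between 3545 and 4098, median 3977, on nonamplified arrays. All 8 amplified arrays lay far below the nonamplified range, and 5 of them fell under the 25th percentile of their array, with a log2 fold change of −6.94 (SE 0.353, adjusted p = 4.09e-11). This was the most negative value among the members, and it depends on the constant of 16 added before taking logs: it was −8.48 with 1 and −5.56 with 64. Probe set 1456528_x_at behaved alike, with 21.1 to 83.8, median 41.0, against 3251 to 3666, median 3532, and a log2 fold change of −5.87 (SE 0.171, adjusted p = 4.25e-14). At 1415771_at, the brightest over all arrays, the amplified arrays ran from 999 to 2633, median 1591, and the nonamplified arrays from 5325 to 5758, median 5662. There the groups were again apart, by a log2 fold change of −1.79 (SE 0.183, adjusted p = 2.75e-07). A dimmer probe set, 1442404_at, gave −2.34 (SE 0.241, adjusted p = 3.14e-07). The fifth, 1415772_at, passed the test in neither direction, with 325 to 1575 on amplified arrays spanning the 497 to 605 of the nonamplified arrays (log2 fold change 0.31, SE 0.269, adjusted p = 0.344).

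Nolc1 encodes a nucleolar and Cajal body phosphoprotein that chaperones small nucleolar particles and binds RNA polymerase I. All 3 of its probe sets were lower without overlap between groups. The brightest, 1428869_at, ran from 360 to 746, median 591, with amplification and from 1528 to 1673, median 1612, without (log2 fold change −1.49, SE 0.127, adjusted p = 2.72e-08). The others gave −2.57 and −3.07.

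The core proteins of the box C/D particle, Fbl, Nop56 and Nop58, differed from each other. Of their 5 probe sets 2 were lower (40%, beside 32.8% of all tested probe sets), under all 5 scalings. The other 3 passed the test in neither direction. Nop58, a scaffold protein of the particle, had 1 probe set, at 6.05 to 38.3, median 22.0, with amplification and 2124 to 2486, median 2345, without. No amplified array reached the nonamplified range, and the log2 fold change was −5.94 (SE 0.150, adjusted p = 7.78e-15). Its partner Nop56 was at 136 to 294, median 212, against 2202 to 2395, median 2321, at 1426533_at (log2 fold change −3.37, SE 0.137, adjusted p = 2.32e-12). At the other Nop56 probe set, 1455035_s_at, the amplified arrays ran from 1868 to 3707, median 2693, and the nonamplified arrays from 2218 to 2419, median 2320. The groups overlapped there, and the log2 fold change of 0.25 (SE 0.125, adjusted p = 0.0956) became 0.33 and called when amplified replicate 3 was left out. It was −0.59 and called after quantile normalization.

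Fbl encodes fibrillarin, the methyltransferase of the particle. At 1416685_s_at it ran from 1561 to 4204, median 2492, on amplified arrays and from 2278 to 2562, median 2467, on nonamplified arrays. The amplified arrays were spread evenly around the nonamplified ones, with 4 below and 4 above their range, and the log2 fold change was 0.011 (SE 0.191, adjusted p = 0.966). Its other probe set gave −0.13 (SE 0.237, adjusted p = 0.660). After quantile normalization 1416685_s_at was called lower, at −0.84, and after centring on the median higher, at 0.57.

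The box H/ACA core, made of the pseudouridine synthase dyskerin (Dkc1) with Gar1, Nhp2 and Nop10, held 3 of the 11 higher calls. Of its 8 probe sets 3 were higher (37.5%, beside 24.7% of all tested probe sets) and 2 were lower (25%, beside 32.8%). The other 3 passed the test in neither direction. Nop10, the smallest core protein, was at 4925 to 6639, median 5571, with amplification and 2494 to 2801, median 2667, without at 1423210_a_at. The groups were apart and the log2 fold change was 1.06 (SE 0.078, adjusted p = 4.53e-09), higher under all 5 scalings with a lowest value of 0.21. At the other Nop10 probe set, 1423211_at, it was 0.16 (SE 0.098, adjusted p = 0.180).

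Gar1 was at 1190 to 3235, median 1779, with amplification and 1065 to 1182, median 1120, without. All 8 amplified arrays were above all nonamplified arrays (log2 fold change 0.75, SE 0.168, adjusted p = 0.00106), but after quantile normalization the value was −0.0067 and not called. Nhp2 at 1416606_s_at ran from 3026 to 9960, median 5493, against 3244 to 3391, median 3292 (0.74, SE 0.196, adjusted p = 0.00395). For this gene 7 of 8 amplified arrays were higher and 1 was lower than the nonamplified range, and the value was −0.095 after quantile normalization. Its second probe set, 1416605_at, gave 0.58 (adjusted p = 0.0759), which passed the test when amplified replicate 4 or 7 was left out (0.72 in both cases).

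Dkc1 was the exception among the 4 core genes, with lower calls and no higher one. At 1438015_at its intensity was 12.4 to 84.1, median 38.1, with amplification and 966 to 1128, median 1020, without (log2 fold change −4.29, SE 0.225, adjusted p = 6.16e-11). At 1438016_at the same arrays gave 219 to 543, median 318, against 1204 to 1468, median 1386 (−1.99, SE 0.157, adjusted p = 1.08e-08). Both were lower on all 8 amplified arrays and under all 5 scalings. Yet 1441788_s_at, with 552 to 1727, median 910, against 711 to 1165, median 1005, overlapped fully and gave −0.0013 (SE 0.239, adjusted p = 0.997).

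**Figure D3:**
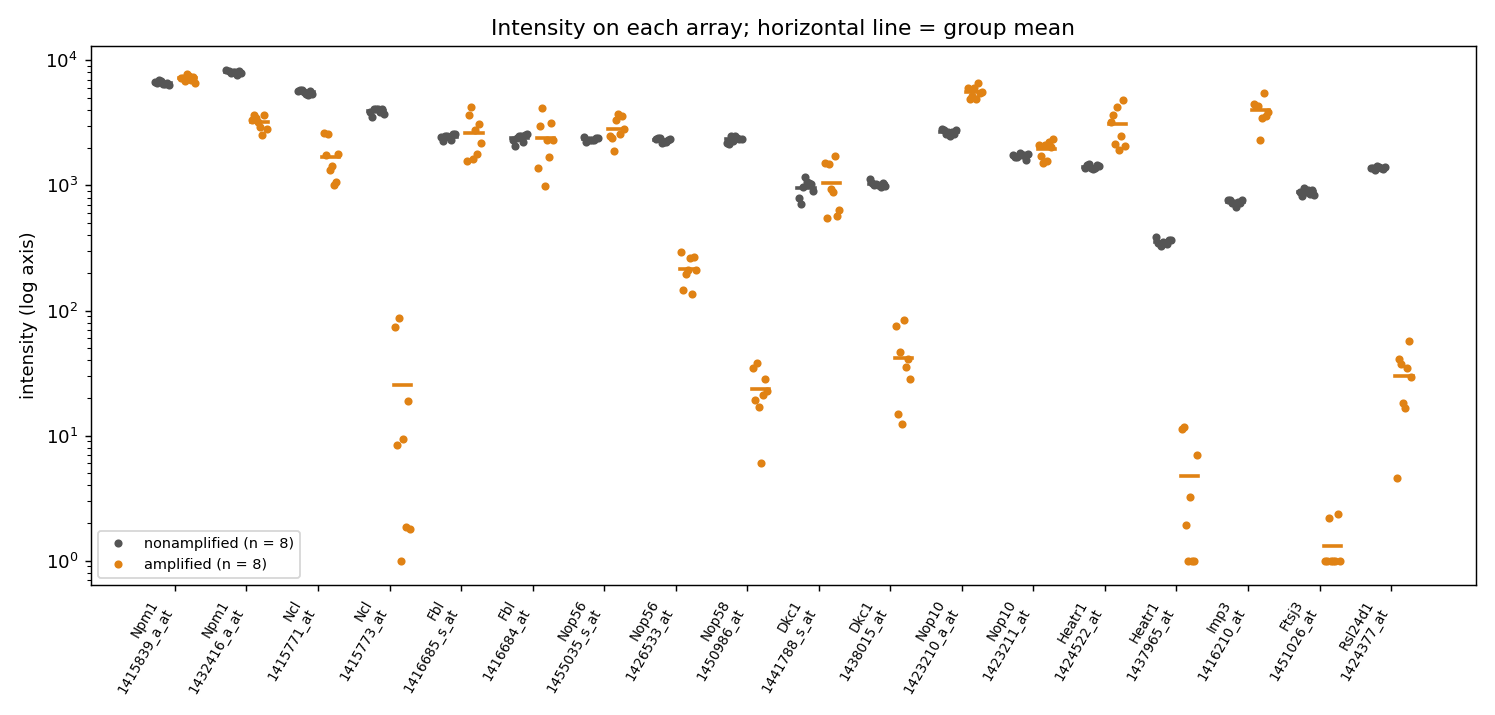
Intensity on each of the 8 nonamplified and 8 amplified arrays (log axis) for the brightest probe set, and the one of lowest log2 fold change, of Npm1, Ncl, Fbl, Nop56, Nop58, Dkc1, Nop10, Heatr1, Imp3, Ftsj3 and Rsl24d1, with the group mean as a line. Probe sets of 1 gene part from each other on the amplified arrays: Nop56 lies at 1868 to 3707 at one probe set and at 136 to 294 at the other.

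The small subunit processome was the largest group, with 27 tested probe sets of 15 genes. Of these, 12 were lower, 6 were higher and 9 passed the test in neither direction. The shares were 44.4% lower and 22.2% higher, beside 32.8% and 24.7% of all tested probe sets. The median log2 fold change was −0.35 over the probe sets and 0.42 with 1 probe set per gene. Imp3, which joins the U3 small nucleolar RNA to the precursor, was the clearest higher member. It ran from 2306 to 5522, median 4074, with amplification and from 678 to 767, median 735, without. The groups were far apart, with a log2 fold change of 2.37 (SE 0.136, adjusted p = 1.81e-10) that stayed between 1.67 and 2.93 under the 5 scalings. Its complex partner Imp4 gave −0.15 (SE 0.172, adjusted p = 0.474) and −0.88 (SE 0.684, adjusted p = 0.294) at its 2 tested probe sets, the latter with amplified arrays from 5.20 to 836.

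Heatr1, a processome subunit also linked to RNA polymerase I transcription, had 1 higher and 2 lower probe sets. At 1424522_at it ran from 1928 to 4789, median 2843, with amplification and from 1360 to 1478, median 1409, without. All 8 amplified arrays were higher (log2 fold change 1.03, SE 0.176, adjusted p = 8.59e-05), although after quantile normalization the value was 0.24 and not called. At 1437965_at the amplified arrays ran from 1 to 11.7, median 2.56, and the nonamplified arrays from 328 to 386, median 349. All 8 amplified arrays were lower there, with a log2 fold change of −4.18 (SE 0.118, adjusted p = 2.81e-14). The remaining probe set, 1452419_at, gave −3.53 (SE 0.123, adjusted p = 3.80e-13).

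Wdr75, Bms1 and Noc4l also had calls in both directions. Wdr75, a subunit that acts with RNA polymerase I transcription, was at 1759 to 3137, median 2481, against 1323 to 1386, median 1349, at 1451649_a_at (log2 fold change 0.79, SE 0.120, adjusted p = 2.64e-05). It was higher on all 8 amplified arrays there, with 0.013 after quantile normalization, while the dim 1442296_at gave −0.78 (SE 0.171, adjusted p = 0.000847), a call lost with weights per group (adjusted p = 0.122). Bms1, a GTPase of the processome, gave 0.53 (SE 0.160, adjusted p = 0.00973) at 1447679_s_at and −1.69 (SE 0.172, adjusted p = 2.61e-07) at 1433636_at. The first of these was −0.25 after quantile normalization.

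Noc4l, the mouse form of a nucleolar complex protein that binds Nop14, had 4 tested probe sets. Its 1443794_x_at ran from 144 to 2740, median 1437, with amplification and from 359 to 422, median 392, without. Higher values were seen on 7 of 8 amplified arrays, with 1 array below the nonamplified range (log2 fold change 1.36, SE 0.440, adjusted p = 0.0144). The similar 1438095_x_at gave 1.14 (SE 0.421, adjusted p = 0.0297), a call lost when amplified replicate 1, 3, 6, 7 or 8 was left out, with values from 0.94 to 1.08. In contrast, 1423826_at gave −1.59 (SE 0.467, adjusted p = 0.00791) and 1423827_s_at −0.77 (SE 0.656, adjusted p = 0.336).

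Among the U3 proteins and other processome subunits with lower calls, Utp6, Utp15, Utp18, Utp20, Nop14 and Wdr43 had no higher call. Utp6 was lower at 1451378_at, with 24.5 to 80.0, median 49.0, against 387 to 452, median 431 (log2 fold change −2.82, SE 0.154, adjusted p = 1.06e-10). The brightest probe set of this gene, 1424500_at, was spread from 11.8 to 1976 with amplification (−1.74, SE 0.608, adjusted p = 0.0223). That call was lost after centring on the median (−1.22, adjusted p = 0.105) and after scaling on the brighter 50% (−1.40, adjusted p = 0.0643). The remaining Utp6 probe set, 1424501_at, gave 0.044 (SE 0.335, adjusted p = 0.924). Utp15 was lower at 1434125_at (−1.95, SE 0.344, adjusted p = 0.000124). Its other probe set, 1454846_at, was spread between 1 and 1850, median 758, against 256 to 306, median 266, with 7 of 8 amplified arrays above the nonamplified range. There the log2 fold change was 0.87 (SE 0.705, adjusted p = 0.310), and 1.58 (adjusted p = 4.52e-05) without amplified replicate 6.

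The remaining lower calls of the processome were smaller. Utp18 gave −0.86 (SE 0.276, adjusted p = 0.0131), Nop14 −0.35 (SE 0.115, adjusted p = 0.0166) and Wdr43 −0.82 (SE 0.195, adjusted p = 0.00176) at 1428390_at. None of these 3 held under all 5 scalings, and the call of Nop14 was lost with weights per group (adjusted p = 0.0569). Wdr43 at its brighter 1428389_s_at gave 0.42 (adjusted p = 0.161), and 0.64 (adjusted p = 0.00229) without amplified replicate 5. Utp20 gave −0.70 (SE 0.280, adjusted p = 0.0432), a call lost in 13 of the 16 fits that leave out 1 array, with log2 fold changes of −0.84 to −0.50 over the 16 fits and adjusted p up to 0.0818. The calls were absent for the methyltransferase Emg1 (−0.091, SE 0.159), for Utp3 (0.29, SE 0.346) and for Rrp9, a U3 particle protein (0.88, SE 0.391, adjusted p = 0.0648). For Emg1 the scaling decided the call: lower after quantile normalization (−0.88) and on hybridization controls (−0.52), higher after centring on the median (0.47). For Rrp9 the amplified arrays ran from 301 to 3221, and the value passed the test without amplified replicate 1, 4 or 7, with adjusted p of 0.0446, 0.00488 and 0.0417.

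Factors of late small subunit maturation had 3 lower and no higher call among 7 probe sets of 5 genes. The lower share was 42.9%, beside 32.8% of all tested probe sets, of which 24.7% were higher. Ltv1, which escorts the small subunit precursor to the cytoplasm, was at 56.6 to 462, median 293, with amplification and 1001 to 1204, median 1149, without. No amplified array reached the nonamplified range, and the log2 fold change was −2.15 (SE 0.285, adjusted p = 5.90e-06), lower under all 5 scalings. Tsr1, a GTPase-like factor that occupies the subunit interface of the precursor, was lower at both of its probe sets, at −1.58 (SE 0.167, adjusted p = 4.25e-07) at 1433502_s_at and −0.52 (SE 0.167, adjusted p = 0.0139) at 1455643_s_at. The second of these was 0.035 after centring on the median. Bysl and Rrp12 take part in precursor export and Nob1 makes the last cut of small subunit RNA. Bysl gave −0.22 (SE 0.589) and −0.26 (SE 0.548), Rrp12 −0.32 (SE 0.198, adjusted p = 0.181) and Nob1 0.37 (SE 0.213, adjusted p = 0.156). Nob1 was at 0.56 (adjusted p = 0.00122) without amplified replicate 6.

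Large subunit assembly factors had 14 lower and 2 higher calls among 24 tested probe sets of 15 genes, with a median log2 fold change of −0.90. The shares were 58.3% lower and 8.33% higher, beside 32.8% and 24.7% of all tested probe sets. With 1 probe set per gene, 8 were lower (53.3%, beside 24.8% of all genes) and 1 was higher (6.67%, beside 27.4%). Lower calls held under all 5 scalings for 11 probe sets of 10 genes. Ftsj3, a nucleolar methyltransferase of precursor processing, was the most complete loss of signal. It lay between 1 and 2.36, median 1, on amplified arrays and between 825 and 957, median 881, on nonamplified arrays. All 8 amplified arrays were at or next to the lowest value of the table, so the fitted log2 fold change of −5.70 (SE 0.063, adjusted p = 8.89e-19) depends on the added constant and was −8.61 with 1 and −3.86 with 64.

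Rsl24d1, a placeholder protein for a ribosomal protein on the large subunit precursor, was at 4.60 to 57.3, median 32.2, with amplification and 1333 to 1441, median 1386, without. The groups were far apart (log2 fold change −5.02, SE 0.199, adjusted p = 1.75e-12). Rsl1d1, a nucleolar protein with a ribosomal protein domain, was at 118 to 425, median 241, against 1614 to 1846, median 1702 (−2.74, SE 0.177, adjusted p = 8.26e-10). Both have a single probe set, and all 8 of their amplified arrays were below the nonamplified range.

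Noc2l and Noc3l, partners in the export of the large subunit precursor, were lower. Noc3l at 1437500_at ran from 1 to 49.6, median 7.46, with amplification and from 230 to 277, median 245, without (log2 fold change −3.27, SE 0.238, adjusted p = 3.90e-09). Its brighter 1426286_at was spread from 1 to 616, median 174, with amplification. The value there was −1.38 (SE 0.634, adjusted p = 0.0739), and it passed the test without amplified replicate 7 (−1.58) or 8 (−1.72). Noc2l was lower at both probe sets, at −1.54 (SE 0.259, adjusted p = 7.81e-05) and −0.67 (SE 0.108, adjusted p = 4.63e-05).

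Pes1, Bop1 and Wdr12 form the PeBoW complex of large subunit processing. Pes1 at 1416172_at was at 244 to 548, median 380, with amplification and 989 to 1173, median 1063, without (log2 fold change −1.50, SE 0.159, adjusted p = 4.33e-07). Wdr12 at 1448646_at was at 262 to 673, median 514, against 835 to 910, median 874 (−0.92, SE 0.181, adjusted p = 0.000346), and at 1417270_at it gave −0.76 (SE 0.093, adjusted p = 2.25e-06). Both genes were thus lower on all 8 amplified arrays at these probe sets. The call of Wdr12 1448646_at was lost after centring on the median (−0.37, adjusted p = 0.0931). The other Pes1 probe set, 1416173_at, passed the test in neither direction (−0.87, SE 0.760, adjusted p = 0.349). Its amplified arrays ran from 1 to 744, with 5 below and 3 above the nonamplified range. Bop1 ran from 204 to 1747, median 348, around the 539 to 586 of the nonamplified arrays, and passed the test in neither direction (−0.27, SE 0.333, adjusted p = 0.511).

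Among the GTPases, Gnl3 and Gnl2 differed. Gnl3 encodes nucleostemin, known for its high expression in stem cells. It ran from 2600 to 5026, median 3727, with amplification and from 1900 to 2105, median 2001, without. All 8 amplified arrays were higher (log2 fold change 0.88, SE 0.133, adjusted p = 2.59e-05), but after quantile normalization the value was 0.045 and after scaling on hybridization controls 0.45, neither of them called. Gnl2, which acts in nuclear export of the large subunit precursor, was lower at 1426579_at (−1.73, SE 0.215, adjusted p = 2.67e-06). At 1437565_a_at it gave 0.34 (SE 0.165, adjusted p = 0.0914), and 0.43 (adjusted p = 0.0211) without amplified replicate 5.

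Ebna1bp2, a nucleolar factor needed for the large subunit, was the other gene with calls in both directions. Its bright 1428315_at was at 352 to 1005, median 479, with amplification and 1318 to 1408, median 1353, without (log2 fold change −1.27, SE 0.165, adjusted p = 4.54e-06). Its 1437512_x_at was at 144 to 307, median 238, against 3.65 to 35.7, median 28.5 (2.73, SE 0.225, adjusted p = 1.95e-08). The nonamplified mean of that probe set, 22.6, lies under the filter level of 33.7, so it was tested only because of its amplified arrays, and its fold change was 3.55 with an added constant of 1 and 1.76 with 64. Both groups were fully apart at each probe set, in opposite order, and both calls held under all 5 scalings. A probe set ending in _x_at contains probes that may match other transcripts.

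Rrp1b was lower at 2 of its 3 probe sets, at −2.02 (SE 0.205) and −2.24 (SE 0.579), and gave −0.11 (SE 0.255) at the brightest one. Nop16, like Rrp1b a nucleolar protein of the large subunit pathway, was lower, at −0.83 (SE 0.216, adjusted p = 0.00339). The call of Nop16 was lost after centring on the median (−0.29, adjusted p = 0.280) and after scaling on the brighter 50% (−0.48, adjusted p = 0.0670). The methyltransferase Nop2 (0.10, SE 0.130, adjusted p = 0.537) and Nip7 (−0.076 at 1448480_at and −0.10 at 1453324_at) passed the test in neither direction. Nip7 was −0.79 (adjusted p = 0.00260) at the first after quantile normalization, and −0.31 (adjusted p = 0.0227) at the second without amplified replicate 5. For Nop2 the sign depended on the scaling, with −0.51 after quantile normalization and 0.65 after centring on the median, both called.

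Because a shift of a whole array cancels between probe sets of 1 gene on the same array, each gene with several tested probe sets was also compared with itself. For every probe set, its log2 value minus that of the brightest tested probe set of the gene was compared between groups. Among 36 such pairs of 26 member genes, 27 (75%) changed unequally at an adjusted p below 0.05 in limma, beside 55.1% of 9169 pairs of all genes. The median absolute difference was 1.68 on the log2 scale for the members and 1.03 for all pairs. In 23 of the 27 the dimmer probe set was lower relative to the brightest one. The brightest was chosen over all 16 arrays, which favours probe sets that stay bright with amplification, and over all genes 3820 pairs were lower and 1232 were higher.

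The widest differences were those of Heatr1, at −5.22 (SE 0.213, adjusted p = 6.73e-12) and −4.57, and of Ncl, at −5.15 (SE 0.261, adjusted p = 9.05e-11) and −4.09. Dkc1 followed with −4.29 (SE 0.266, adjusted p = 9.72e-10), Ebna1bp2 with 3.999 (SE 0.269, adjusted p = 2.56e-09) and Nop56 with −3.62 (SE 0.146, adjusted p = 6.06e-12). These genes thus gave unlike answers at different probe sets on the same arrays. Both dimmer Heatr1 probe sets and Ncl 1415773_at passed the intensity filter only through their nonamplified arrays. Ebna1bp2 1437512_x_at passed it only through its amplified arrays. The log2 fold changes of these 4 probe sets, and so the size of these differences, depend on the added constant. In 6 pairs (16.7%, beside 13.8% of all pairs) the 2 probe sets were called in opposite directions. The unequal change of Noc3l, −1.89 with an adjusted p of 0.0430, was lost in 14 of the 16 fits without 1 array, and that of Utp6 1424501_at, 1.78 with an adjusted p of 0.0268, without amplified replicate 8 (1.56). Pairs of Fbl, Nhp2, Bysl, Nip7, Wdr12, Imp4 and Pes1 did not pass the test. Their differences lay between −0.72 and 0.63, with SE from 0.114 for Fbl to 0.954 for Bysl. Those of Utp6 1451378_at (−1.08, SE 0.638) and Ncl 1442404_at (−0.55, SE 0.319) did not pass it either. The Utp6 pair passed without amplified replicate 2, and the Ncl pair without amplified replicate 6.

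**Figure D4:**
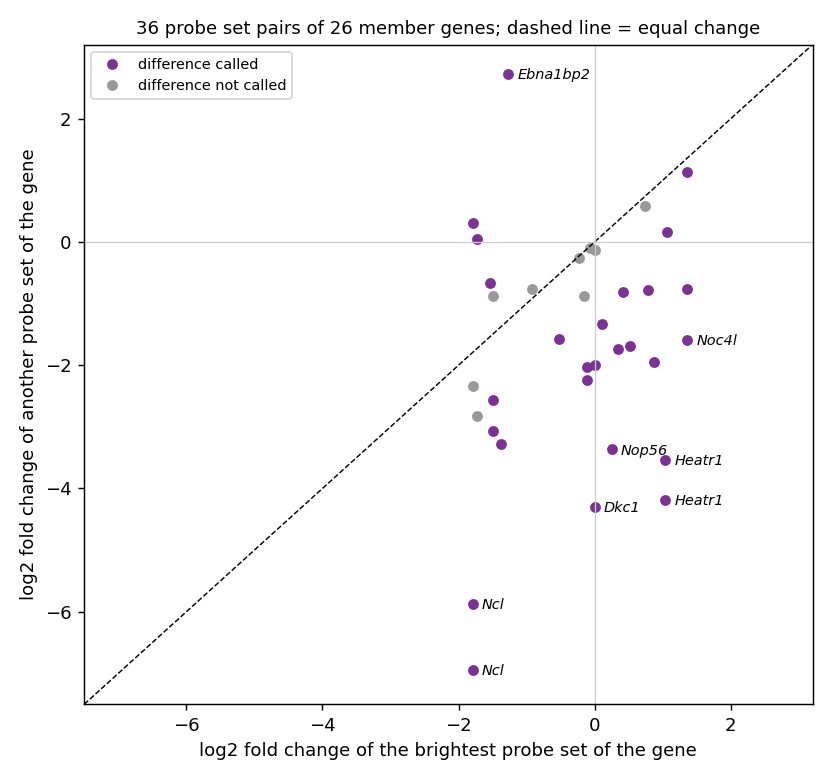
Log2 fold change of each further tested probe set (vertical axis) against that of the brightest probe set of the same gene (horizontal axis) for the 36 pairs of member genes, with the line of equality dashed. Of the 27 pairs that changed unequally 23 lie below the line, and the probe sets of Heatr1, Ncl and Dkc1 lie farthest below it.

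The kind of probe set moved with the calls. Among 59 member probe sets ending in _at, 36 were lower (61.0%) and 2 were higher (3.39%), beside 33.5% and 23.4% of 20152 probe sets of that kind on the array. The other 22 member probe sets, which end in _a_at, _s_at or _x_at and can detect several transcripts, held 9 of the 11 higher calls (40.9% of the 22, beside 28.5% of all 6870 probe sets of these kinds). Over all tested probe sets the share of higher calls was 24.4% for _a_at, 24.2% for _s_at and 40.6% for _x_at. Only Imp3 and Heatr1 were higher at a probe set ending in _at. The part of the probe set design in the directions was not tested further.

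The signal of the members varied more between amplified arrays than between nonamplified ones. The SD of the log2 value over 8 arrays had a median of 0.56 with amplification and 0.066 without, beside 0.51 and 0.13 for all tested probe sets. It was larger with amplification for 78 of 81 member probe sets (96.3%, beside 90.4%). An SD of at least 1 on amplified arrays was found for 16 (19.8%, beside 27.7%) and on nonamplified arrays for none of the 81. The members were brighter on average than all tested genes, and the spreads were not compared at like intensity. The widest spreads were those of Pes1 1416173_at (2.28), Utp15 1454846_at (2.11), Imp4 1455723_at (2.04), Noc4l 1423827_s_at (1.96) and Noc3l 1426286_at (1.89). At each of these at least 1 amplified array was above and at least 1 was below the nonamplified range, and none passed the test. The steadiest were Ftsj3 (0.048), which sat at the lowest value, and then Npm1 1415839_a_at (0.074), Nop10 1423210_a_at (0.15) and Npm1 1432416_a_at (0.18).

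**Figure D5:**
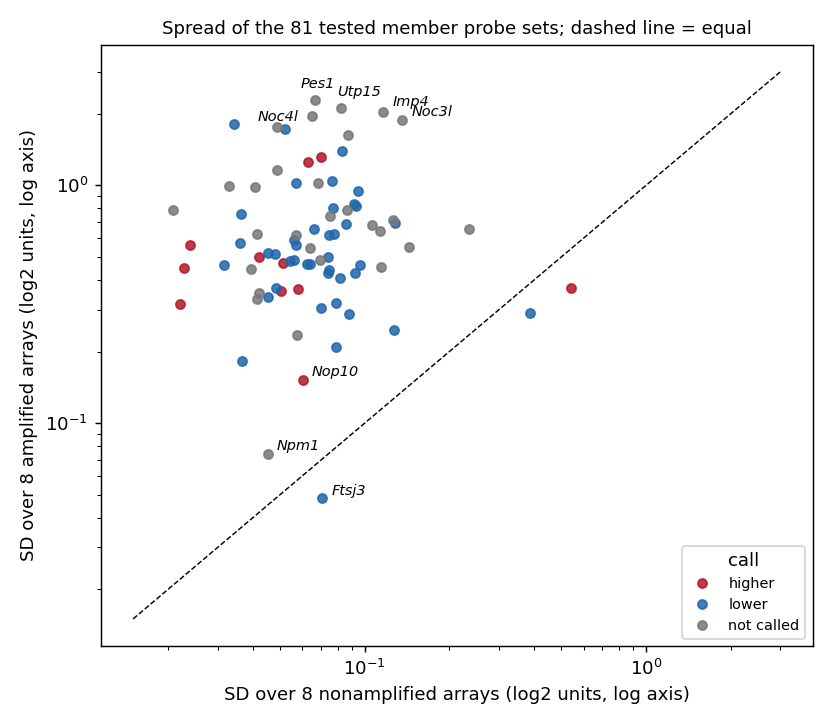
SD of log2(intensity + 16) over the 8 amplified arrays (vertical log axis) against that over the 8 nonamplified arrays (horizontal log axis) for the 81 tested probe sets, coloured by call, with equality dashed. All but 3 points lie above the line, with Pes1 1416173_at highest at 2.28.

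Loss of signal on single amplified arrays was counted as dropout, defined as a value below the 25th percentile of its array for probe sets whose nonamplified mean was in the upper 50%. Such probe sets of the members also number 81, one of them (Gnl2 1437566_at) too dim on average to be tested above. Of these, 20 dropped out on at least 1 amplified array (24.7%, beside 37.8% of all such probe sets) and 6 on at least 4 (7.41%, beside 13.9%). These 6 were Ftsj3 and Heatr1 1437965_at on 8 arrays, Noc3l 1437500_at and Gnl2 1437566_at on 6, Ncl 1415773_at on 5 and Pes1 1416173_at on 4. In all, 54 of 648 values dropped out (8.33%, beside 14.5%). With 1 probe set per gene, the members stood 2.55 log2 units above the mean of all tested genes without amplification. Dropout was not compared at like intensity, so these lower shares cannot be read as a trait of the members. Heatr1, Gnl2, Ncl and Pes1 had another probe set with dropout on 0 amplified arrays, Noc3l had one with dropout on 2, and Ftsj3 has no other.

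Over the 45 member genes, with 1 probe set each, the mean log2 value of an array was 9.47 ± 0.16 (SD, n = 8) with amplification and 10.0 ± 0.024 (SD, n = 8) without. Relative to the mean of all tested genes on the same array, the members stood 2.02 ± 0.15 higher with amplification, with arrays from 1.77 to 2.25. Without amplification they stood 2.55 ± 0.026 higher, with arrays from 2.50 to 2.58. The groups did not overlap in this measure. As a mean, it includes the largest differences, of Nop58 (−5.94), Ftsj3 (−5.70) and Rsl24d1 (−5.02), which depend on the added constant. The median log2 fold change was −0.11 over the member genes and −0.026 over all genes. The members did not move as a block between amplified arrays: the mean correlation over pairs of the 45 genes was 0.0056 across the 8 amplified arrays and 0.11 across the 8 nonamplified arrays. For all tested genes it was 0.0023 and 0.013, and all pairs share the same arrays and scaling.

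Introns of several ribosome biogenesis genes carry small nucleolar RNAs, the guides of the particles above. By RefSeq annotation, 7 of the 46 members (15.2%) have 19 small nucleolar RNA genes within their span, beside 372 of 21900 protein-coding genes (1.70%). They are Nop56 with 5, among them Snord57 and Snord110, Nop58 with 4, among them Snord11 and Snord70, Wdr43 and Gnl3 with 3 each, Ncl with 2 (Snora75 and Snord82), and Dkc1 and Tsr1 with 1 each. At the brightest probe set of these host genes, Ncl, Nop58 and Tsr1 were lower, Gnl3 was higher, and Nop56, Dkc1 and Wdr43 passed the test in neither direction. No value here measures the small nucleolar RNAs themselves.

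Other genes of the pathway, listed by role with earlier results of these data known, had shares of calls near those of all genes. Of 142 listed genes 138 had a probe set and 137 were tested, with 38 higher (27.7%, beside 27.4% of all genes), 37 lower (27.0%, beside 24.8%) and 62 passing the test in neither direction, and a median log2 fold change of 0.13. Among RNA polymerase I and its factors, 4 of 16 were higher and 3 were lower. Tcof1, which couples ribosomal DNA transcription to precursor modification, had means of 2206 with amplification and 822 without (1.38, SE 0.114, adjusted p = 2.04e-08), and the initiation factor Taf1b 24.0 and 222 (−2.61, SE 0.141, adjusted p = 8.68e-11). Other small subunit factors had 12 higher and 12 lower of 44. There Nol7 had means of 7057 and 1207 (2.53, SE 0.077, adjusted p = 6.45e-14) and Rrp36 of 22.8 and 280 (−3.01, SE 0.176, adjusted p = 2.40e-10).

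Further large subunit factors had 15 higher and 12 lower of 46. The helicase Ddx54 had means of 4913 with amplification and 895 without (2.39, SE 0.138, adjusted p = 2.12e-10), and the SUMO protease Senp3 of 112 and 1531 (−3.70, SE 0.214, adjusted p = 2.05e-10). Factors that assemble the small nucleolar particles had 1 higher and 2 lower of 10, with Naf1 at 0.74 (SE 0.146, adjusted p = 0.000365) and Ruvbl1 at −0.55 (SE 0.201, adjusted p = 0.0277). Nucleases that trim ribosomal RNA had 6 higher and 8 lower of 21. Pop5, a subunit of the RNase MRP complex, was the highest of them (3.17, SE 0.296, adjusted p = 9.06e-08), and the exosome subunit Exosc6 the lowest (−3.65, SE 0.378, adjusted p = 3.19e-07). The counts of higher and lower genes in this list also moved with the scaling, from 20 higher after quantile normalization to 64 after centring on the median.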

How the data were processed

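Total RNA was purified with a silica column kit and biotin-labelled cRNA was prepared by the one-cycle assay of Affymetrix, per the labels' protocols. The values deposited by the authors are 1 linear intensity per probe set and array, with a lowest value of 1. The sources used here give neither the summarisation software nor the scaling between arrays. Scan dates and slides were not used, so a batch was not tested. For arrays, their number limits the precision.

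Of 45101 probe sets 64 are controls. The platform annotation, updated through RefSeq identifiers, gives 34945 probe sets 1 gene symbol, 932 several and 9160 none. Groups came from the sample titles. Values were taken as log2(intensity + 16), which shrinks log2 fold changes of dim probe sets. Probe sets with a 16-array mean at or below the 40th percentile, about 33.7 in intensity, were not tested. The 7 member probe sets this removed are 1 each of Imp4, Bop1, Gnl2, Ebna1bp2, Utp18, Nop16 and Wdr12. Lower-called probe sets with an amplified mean under 33.7 passed only through their nonamplified arrays. Among them were Ftsj3, Heatr1 1437965_at and 1452419_at, Noc3l 1437500_at, Nop58, Wdr75 1442296_at, Ncl 1415773_at and Rsl24d1. Their amplified means ran from 1.32 for Ftsj3 to 29.9 for Rsl24d1. The groups were compared with limma 3.58.1 (lmFit and eBayes, R 4.3.3) by 2-sided tests with Benjamini-Hochberg adjustment over all probe sets tested, or over all pairs of all genes for pairs of probe sets. Figures used matplotlib 3.10.9 in Python 3.11.15.

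In simulated data over 27022 probe sets, the test called 51% of 100 log2 differences of 1 and 83% of 100 of 2, with 0 in the wrong direction and 33 unchanged probe sets called. Far fewer probe sets were changed there than the 57.5% called in these data. The adjustment depends on that share, so 51% and 83% do not give the sensitivity here. The members, the role lists, the marker lists and the alternatives were chosen with earlier results of these data known. All members are named in the text. From each list of other genes the text names the called gene that was highest and the called gene that was lowest by log2 fold change. The alternatives were other pseudocounts (1 and 64), 4 other scalings, other filters, leaving out probe sets of type _s_at and _x_at, weights per group, a robust trend, a replicate block, other dropout limits and leaving out each array in turn.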

Additional observations from a re-analysis of the deposited data

Results flagged for a closer look

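In 162 groups of 8 arrays (81 probe sets in both groups), 12 held a highest or lowest array far from the others, 10 with amplification and 2 without, where chance gives about 1 in 20 groups. On amplified replicate 5, Utp6 1424501_at was at 86.5 (others 334 to 817), Wdr43 1428389_s_at at 362 (842 to 1711), Tsr1 1433502_s_at at 169 (350 to 564) and Bysl 1450742_at at 4.53 (142 to 795), all lowest. Nip7 1453324_at was highest on that array, at 186 (others 32.8 to 59.4). On amplified replicate 2, Noc4l 1423827_s_at was at 1 (others 255 to 1421) and Nip7 1448480_at at 498 (1055 to 1992). On amplified replicate 6, Utp15 1454846_at was at 1 (others 436 to 1850) and Nob1 at 297 (689 to 1281). On amplified replicate 1, Rrp1b 1452118_at was highest at 239 (others 50.2 to 99.7). Without amplification, Ncl 1442404_at was lowest at 178 on replicate 3 (others 210 to 238), and Ncl 1456528_x_at at 3251 on replicate 6 (others 3465 to 3666).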

How the results depend on the processing

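The number of member probe sets called, 52, was 43 to 56 over all alternatives, but its split moved: against 11 higher as deposited there were 4 after quantile normalization, 24 after centring on the median, 21 after scaling on the brighter 50%, 4 after scaling on hybridization controls and 5 without _s_at and _x_at probe sets. For member genes, against 9 higher, these settings gave 3, 19, 16, 3 and 5, and against 17 lower the first 3 gave 27, 10 and 11. For the other pathway genes, against 38 higher, the 4 scalings gave 20, 64, 58 and 22, and against 37 lower, centring on the median gave 22. Unequal pairs were 17 of 24, against 27 of 36, without _s_at and _x_at probe sets, and dropout on at least 4 arrays fell from 6 probe sets to 2 under the 10th percentile. Leaving out 1 array gave 51 to 55 member probe sets called, 25 to 28 member genes, 73 to 82 other genes, 25 to 27 unequal pairs, 39 to 42 without overlap, 5 to 6 dropouts and 78 with a larger amplified SD. At the probe set of highest mean, log2 fold changes turned sign after quantile normalization for Bms1 (−0.25), Fbl (−0.84), Gar1 (−0.0067), Nhp2 (−0.095), Nop2 (−0.51), Nop56 (−0.59) and Npm1 (−0.52). After centring on the median they turned for Emg1 (0.47), Nop14 (0.19) and Tsr1 (0.035), and after scaling on the brighter 50% for Nop14 (0.0067). The cause was not tested. Correlations of same-numbered arrays were −0.0078 to 0.018, so the numbers do not pair the arrays, and 3 of 8 correlated best with their own number. With the replicate block, the call of Utp20 was lost (−0.70, adjusted p = 0.0664) and no other member probe set changed call. Signal near the lowest value limits 15 of the 81 probe sets, whose log2 fold changes moved by at least 1 between added constants of 1 and 64. Widest were Ftsj3, Heatr1 1437965_at (−6.36 and −2.60), Ncl 1415773_at, Noc3l 1437500_at (−4.72 and −2.02), Heatr1 1452419_at (−4.43 and −2.38), Nop58 (−6.72 and −4.78), Ebna1bp2 1437512_x_at and Rsl24d1 (−5.75 and −3.96). Smaller were those of Pes1 1416173_at, Dkc1 1438015_at (−4.83 and −3.40), Nolc1 1428870_at, Ncl 1442404_at, Ncl 1456528_x_at, Noc3l 1426286_at and Utp6 1451378_at (−3.19 and −2.13).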

Other observations

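Among the 7 member probe sets too dim to be tested, Gnl2 1437566_at stood apart: its mean was 9.17 with amplification and 61.3 without, and the groups did not overlap. Bop1 1430491_at, at 11.7 and 32.3, did not overlap either. The other 5, of Imp4, Ebna1bp2, Utp18, Nop16 and Wdr12, overlapped between groups. With 1 probe set per gene, the 8 members with CACGTG in the start region had 5 lower and 0 higher calls and a median log2 fold change of −0.61. The 31 members without it had 11 lower and 9 higher calls and a median of −0.076. Of all genes, 24.8% were lower and 27.4% were higher, and the calls of all genes with CACGTG were not counted. The counts come with no test, and the calls depend on the scaling as described above. Both groups share 1 RNA, so the counts do not measure promoter activity.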
